A study of Mus musculus with 12 samples.

Results

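Hydrophobic 6-7 chains were T cell receptor beta (TRB) chains whose complementarity-determining region 3 (CDR3) had a hydrophobic residue at both position 6 and position 7, counting the first residue of the CDR3, the conserved Cys, as 1. The set held 8 residues: Phe, Ile, Leu, Met, Trp, Tyr, Val and Cys. Each cell was represented by its TRB chain with the most unique molecular identifiers (UMIs). By this sequence rule 1013 of 76281 cells with a TRB chain were members, or 1.33% (exact 95% interval 1.25 to 1.41). Counted once per nucleotide CDR3 and library, 813 of 53035 chains were members, or 1.53% (1.43 to 1.64), and they came to 797 of 50823 distinct nucleotide CDR3s when libraries were pooled. All intervals given here are at the 95% level and cover counting error only, and cells of 1 clone are not independent draws.

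The cells were CD8+ T cells from the spleens of wild-type C57BL/6 mice: 5 mice received 10 µg of anti-CD137 (clone 3H3), an antibody against a costimulatory receptor, and 10 mice received 100 µg of an Ig control (clone HRPN), each 2 times a week for 14 days. Effector cells (Teff) were sorted as CD44hi PD1-, precursor exhausted cells (Tpex) as CD44hi PD1+ Slamf6+ Tim3-, and exhausted cells (Tex) as CD44hi PD1+ Slamf6- Tim3+. Each of the 6 combinations of treatment and subset was 1 gene expression library with 1 matching TCR library, with no label tying cells to a mouse, so no test over samples was possible, antibody, dose and group of mice cannot be told apart, and libraries are compared by intervals. The sorted phenotypes were taken from the labels, since gene-level values were not analysed here.

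Between 45.3% (anti-CD137 Tpex) and 87.5% (control Tpex) of the cells in the deposited cell table had a TRB chain. The median RNA depth ran from 1950 UMIs per cell in anti-CD137 Tpex to 5619 in control Tex, and the median TRB chain had 6 to 17 UMIs. More than 1 TRB chain was found in 2.87% (control Tex) to 17.8% (anti-CD137 Tpex) of TRB cells. Of 95046 distinct cell barcodes, 5336 occurred in 2 or more libraries. Only 2 of them carried the same TRB there, and neither was a member. A tie for the most UMIs was found in 685 cells, 12 of them called members.

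The TRB CDR3 is the loop that sits over the middle of the peptide held by an MHC molecule, and its central residues are those most often in contact with that peptide. Hydrophobic residues at positions 6 and 7 are a described index of self-reactivity: they were reported to be more frequent in T cells that respond to self peptides. The loop is assembled from a V, a D and a J segment, joined with trimmed ends and added bases that no segment encodes. TRBD2 lies downstream of the TRBJ1 cluster, so it can join only TRBJ2 segments, whereas TRBD1 can join either cluster.

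The germline segments that bear on these positions are shown first, from the mm10 (GRCm38) assembly. TRBD1 (chromosome 6, 41533201 to 41533212) and TRBD2 (chromosome 6, 41542163 to 41542176) are D segments on the plus strand of the Trb locus, and TRBJ2-7 (chromosome 6, 41543810 to 41543856) is a J segment of the second cluster, printed up to the conserved Phe codon that ends the CDR3. Capitals mark the overlapping Leu (CTG) and Trp (TGG) codons of TRBD2 and the first Tyr codon of TRBJ2-7.
TRBD1: gggacagggggc
TRBD2: gggaCTGGgggggc
TRBJ2-7: ctccTATgaacagtacttc
TRBD1 held no hydrophobic codon in any of its 3 reading frames, which read Gly Thr Gly Gly, Gly Gln Gly and Asp Arg Gly. TRBD2 read Gly Thr Gly Gly in frame 1, Gly Leu Gly Gly in frame 2 and Asp Trp Gly Gly in frame 3.

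The largest member of each library, in cells, and the 2 members found in both treatments are shown next as nucleotide CDR3s, with the codons of residues 6 and 7 in capitals.
Control Teff, TRBV12-2+TRBV13-2 and TRBJ2-7, Phe-Trp: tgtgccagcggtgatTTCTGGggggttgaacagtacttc
Anti-CD137 Teff, TRBV12-1 and TRBJ2-5, Trp-Val: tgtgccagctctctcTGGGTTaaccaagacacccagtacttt
Control Tpex, TRBV12-2+TRBV13-2 and TRBJ1-5, Met-Trp: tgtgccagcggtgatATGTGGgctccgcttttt
Anti-CD137 Tpex, TRBV12-1 and TRBJ2-7, Val-Trp: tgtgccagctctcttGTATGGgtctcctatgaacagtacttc
Control Tex, TRBV13-1 and TRBJ2-5, Trp-Val: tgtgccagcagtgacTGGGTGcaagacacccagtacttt
Anti-CD137 Tex, TRBV20 and TRBJ2-7, Val-Tyr: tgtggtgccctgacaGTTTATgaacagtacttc
Both treatments, TRBV13-1 and TRBJ2-3, Trp-Val: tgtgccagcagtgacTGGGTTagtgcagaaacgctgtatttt
Both treatments, TRBV13-1 and TRBJ2-7, Trp-Tyr: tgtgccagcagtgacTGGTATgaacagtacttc
The Tyr codon TAT that TRBJ2-7 encodes stands at residue 7 in the anti-CD137 Tex chain and in the second of the shared chains.

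Counted by cells, hydrophobic 6-7 chains were less frequent in Tex than in Teff, with Tpex between them. The control Teff library had 332 member cells among 20596 (1.61%, 1.44 to 1.79), and the anti-CD137 Teff library had 355 among 24035 (1.48%, 1.33 to 1.64). Both Tpex libraries had 1.34%, from 151 among 11258 in the controls (1.14 to 1.57) and 80 among 5980 after anti-CD137 (1.06 to 1.66). Tex had 53 among 8575 in the controls (0.618%, 0.463 to 0.808) and 42 among 5837 after anti-CD137 (0.72%, 0.519 to 0.971). The Tex libraries lay lowest under both treatments, at 0.383 times the Teff share in the controls and 0.487 times after anti-CD137. The difference of Tex from Teff was -0.994 percentage points (-1.23 to -0.741) in the controls and -0.757 (-1.01 to -0.465) after anti-CD137, and neither interval included 0. That of Tpex from Teff was -0.271 (-0.544 to 0.0139) in the controls and -0.139 (-0.458 to 0.218) after anti-CD137. With TRB barcodes outside the cell table added, both intervals of Tpex minus Teff excluded 0, at -0.302 (-0.56 to -0.0363) and -0.269 (-0.49 to -0.043). Without the 3 largest TRB chains of each library the control value was 0.0305 (-0.279 to 0.358). That removal took out no member cells, so it raises each share by construction. All intervals by cells take each cell as an independent draw, though the Tex member cells came from 12 control and 19 anti-CD137 chains.

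Counted once per nucleotide CDR3, which takes clone size out of the share, the lower share in Tex was no longer separated from Teff. Members were 318 of 19258 control Teff chains (1.65%, 1.48 to 1.84) and 331 of 22662 anti-CD137 Teff chains (1.46%, 1.31 to 1.63). They were 89 of 5643 control Tpex chains (1.58%, 1.27 to 1.94) and 44 of 3065 anti-CD137 Tpex chains (1.44%, 1.04 to 1.92). In Tex they were 12 of 1102 control chains (1.09%, 0.564 to 1.89) and 19 of 1305 anti-CD137 chains (1.46%, 0.879 to 2.26). After anti-CD137 the subsets had nearly the same values: the difference from Teff was -0.025 percentage points for Tpex (-0.449 to 0.485) and -0.00466 for Tex (-0.605 to 0.818). In the controls it was -0.0741 for Tpex (-0.437 to 0.326) and -0.562 for Tex (-1.12 to 0.262), the lowest of the 6 shares. With 12 and 19 member chains, differences of up to about that size in Tex were not detectable at this depth.

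Anti-CD137 and control libraries of the same subset had differences whose intervals included 0 by either count. By cells the anti-CD137 share minus the control share was -0.135 percentage points in Teff (-0.37 to 0.0971), -0.00348 in Tpex (-0.362 to 0.38) and 0.101 in Tex (-0.174 to 0.397). Once per nucleotide CDR3 it was -0.191 in Teff (-0.434 to 0.0499), -0.142 in Tpex (-0.673 to 0.435) and 0.367 in Tex (-0.624 to 1.33). This does not show that the treatments gave equal shares. Without Tyr in the residue set the Teff difference per nucleotide CDR3 was -0.22 (-0.43 to -0.0122), an interval that excluded 0. Without the largest member chain of each library, the Tex difference by cells was 0.28 (0.0607 to 0.526), and its interval also excluded 0. That removal took out member cells only, 30 of 53 in control Tex and 10 of 42 in anti-CD137 Tex. The shift thus follows from the choice of chain, and nothing about treatment is read from it.

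**Figure D1:**
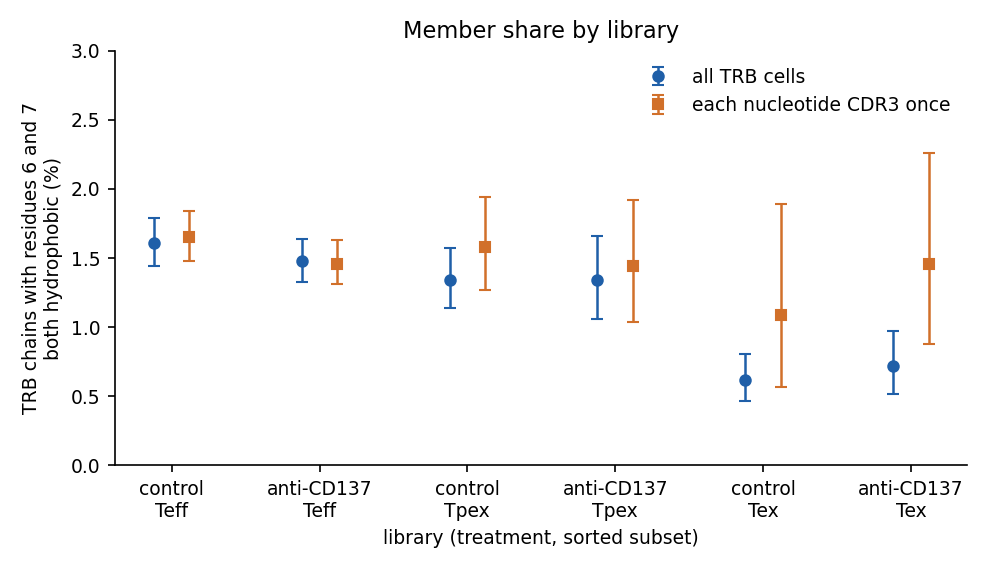
Share of TRB chains with hydrophobic residues 6 and 7 in each library, in percent, by cells (blue circles) and with each nucleotide CDR3 counted 1 time (orange squares), with exact 95% intervals. By cells the Tex libraries sit at 0.618 and 0.72%, under the other 4, while by nucleotide CDR3 all 6 intervals overlap.

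A few large chains held many Tex cells, and none of the 10 largest in any library was a member. With members at 1.53% of all chains, 10 chains are too few to show a lack of members. The 10 most abundant TRB chains took 41.6% of control Tex cells, 22.3% of anti-CD137 Tex cells, 21.2% of control Tpex cells and 5.48% of anti-CD137 Tpex cells, against 0.452% and 0.711% in control and anti-CD137 Teff. The largest member ranked 43 in control Tex, with 30 cells, and 92 in anti-CD137 Tex, with 10 cells. It ranked 74 and 79 in control and anti-CD137 Tpex, and 16 and 21 in control and anti-CD137 Teff. Among the 100 largest chains, members were 2 in control Teff, 3 in anti-CD137 Teff and 2 in control Tpex. They were 0 in anti-CD137 Tpex, 1 in control Tex and 1 in anti-CD137 Tex. The most abundant chain of any kind held 846 cells in control Tex and 242 in anti-CD137 Tex. Without the 3 largest chains, none of them a member, the member share by cells rose by construction. It was 0.835% in control Tex and 0.796% in anti-CD137 Tex. Tex minus Teff was then -0.78 (-1.06 to -0.474) and -0.685 (-0.959 to -0.369), and both intervals excluded 0. These intervals take each cell as an independent draw, which cells of 1 clone are not, so they are too narrow. Once per nucleotide CDR3 both intervals of Tex minus Teff included 0.

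By clone size the member share showed no steady trend. Members were 741 of 47670 chains seen in 1 cell (1.55%, 1.45 to 1.67), 56 of 4399 chains in 2 to 4 cells (1.27%, 0.963 to 1.65) and 15 of 820 chains in 5 to 19 cells (1.83%, 1.03 to 3.0). Of the 146 chains in 20 or more cells 1 was a member (0.685%, 0.0173 to 3.76). Over the 4 PD1+ libraries together, chains in 2 or more cells had a member share of 1.47% and chains in 1 cell 1.48%, a difference of -0.00229 percentage points (-0.478 to 0.521). The difference between expanded and single chains ran from -0.691 (-1.25 to 0.156) in control Teff to 0.502 (-0.917 to 2.08) in anti-CD137 Tex, and its interval included 0 in each of the 6 libraries.

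The Tex shares by cells rested on few clones. In control Tex a TRBV13-1 and TRBJ2-5 chain with Trp-Val at residues 6 and 7 held 30 of the 53 member cells (56.6%). The same nucleotide CDR3 was in 8 control Tpex cells, of which 8 lay in cluster 1, while 29 of the 30 Tex cells lay in cluster 3. All 26 Tex cells and all 8 Tpex cells of this chain with a TRA chain carried 1 TRA within each library. Without this chain the control Tex share by cells was 0.269% (23 of 8545, 0.171 to 0.404).

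In anti-CD137 Tex the largest member was a TRBV20 and TRBJ2-7 chain with Val-Tyr. It held 10 of 42 member cells (23.8%), 9 of them in cluster 4, and was also in 3 anti-CD137 Tpex cells. The second, TRBV16 and TRBJ2-7 with Ile-Tyr, held 5 cells, all in cluster 4. Without the largest member the anti-CD137 Tex share by cells was 0.549% (0.376 to 0.774).

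The other large members were smaller. In control Tpex a TRBV12-2+TRBV13-2 and TRBJ1-5 chain with Met-Trp held 9 cells and a TRBV1 and TRBJ2-1 chain with Val-Trp held 8. In anti-CD137 Tpex the TRBV12-1 chain with Val-Trp and a TRBV20 chain with Leu-Trp held 6 cells each, the first all in cluster 1 and the second all in cluster 5. In Teff the largest members held 5 cells (control, Phe-Trp) and 8 cells (anti-CD137, Trp-Val), mostly in cluster 6, with 4 of 5 and 6 of 8 cells. Where a TRA was found, the 3 largest members of control Tpex carried 1 TRA each, in 3 of 9, 4 of 8 and 8 of 8 cells. Those of control Tex also carried 1 each, in 26 of 30, 6 of 6 and 3 of 5 cells. The TRBV20 chain with Leu-Trp carried 4 TRA chains in the 5 anti-CD137 Tpex cells with a TRA. The TRBV12-1 chain of that library carried 3 in 5 such cells, and the TRBV10 chain 1 in 3. In anti-CD137 Teff the 3 largest members carried 3, 3 and 1 TRA chains, in 7, 7 and 4 cells with a TRA. Those of control Teff carried 1, 1 and 2, in 2 cells each, and those of anti-CD137 Tex 1, 1 and 2, in 9, 5 and 2 cells.

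Among the deposited clusters, which are known here by number, the member share was near the library's value in the clusters that held most cells. Once per nucleotide CDR3 it was 1.53% and 1.68% in clusters 0 and 2 of control Teff and 1.58% and 1.45% in those of anti-CD137 Teff. In clusters 1 and 5 it was 1.48% and 1.23% in control Tpex, and 1.5% and 1.49% in anti-CD137 Tpex. In control Tex, cluster 3 had 11 members among 1022 chains (1.08%) and cluster 4 had 0 among 224, with an upper interval bound of 1.63%. In anti-CD137 Tex, cluster 3 had 6 among 546 (1.1%) and cluster 4 had 17 among 1046 (1.63%). Each of these 6 differences between clusters had an interval that included 0. By cells that held for 5 of them. Control Tex cluster 4 had 0 member cells among 749 and cluster 3 had 49 among 7603, a difference of -0.644 (-0.851 to -0.125), where 29 of the 49 cells were of 1 chain. Anti-CD137 Tpex cluster 5 minus cluster 1 was 0.855 by cells (-0.0922 to 2.14).

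The highest share in a cluster with more than 100 chains was that of cluster 1 in control Teff, with 16 members among 502 chains (3.19%, 1.83 to 5.12), against 7 among 614 (1.14%, 0.46 to 2.33) in the same cluster of anti-CD137 Teff. Cluster 1 was the cluster that held most Tpex cells. It was picked out of 28 cluster and library combinations after the values were seen. Control Tpex cluster 2 had 4 members among 53 chains (7.55%, 2.09 to 18.2).

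Each residue on its own was hydrophobic far more often than both together. Residue 6 was hydrophobic in 14.5% of all chains, residue 7 in 18.8% and at least 1 of them in 31.8%, and 16068 chains had exactly 1 and so fell just outside the rule. The product of the single shares was 2.74%, above the 1.53% observed for both. The product exceeded the observed share in each of the 6 libraries, from 2.62% in control Tpex to 3.59% in anti-CD137 Tex.

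Anti-CD137 Tex stood highest, once per nucleotide CDR3, on the share of chains with at least 1 hydrophobic residue, a comparison made after these values were seen. At least 1 hydrophobic residue at 6 or 7 was found in 481 of its 1305 chains (36.9%, 34.2 to 39.5), against 31.1% to 32.4% in the other 5 libraries. It exceeded anti-CD137 Teff by 5.64 percentage points (2.95 to 8.39) and control Tex by 4.46 (0.587 to 8.31). Counted by cells, with each cell taken as an independent draw, the difference was 4.11 from anti-CD137 Teff (2.75 to 5.48) and 1.99 from control Tex (0.4 to 3.58). Standardised to 1 common use of V segments it was 5.38 from anti-CD137 Teff and 2.64 from control Tex. With TRB barcodes outside the cell table added, the difference from control Tex was 3.33 (-0.321 to 6.94), and its interval then included 0. The same comparison of anti-CD137 Teff with control Teff went the other way, by -1.17 percentage points (-2.06 to -0.268). Residue 7 was hydrophobic in 21.9% of anti-CD137 Tex chains and 18.4% of anti-CD137 Teff chains, and residue 6 in 16.4% and 14.3%. By cells the difference between anti-CD137 Tex and anti-CD137 Teff turned at residue 7, to -4.15 percentage points, and was 7.51 at residue 6. That from control Tex was -11.5 by cells at residue 7 and 13.6 at residue 6, against 2.5 and 2.33 once per nucleotide CDR3. The 10 largest chains held 41.6% of control Tex cells and 22.3% of anti-CD137 Tex cells. How far large clones set the values by cells was not tested.

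Positions 6 and 7 were not a place of many hydrophobic pairs in the CDR3. In control Teff the same residue set filled residues 4 and 5 in 0.0571% of chains, 5 and 6 in 5.53%, 7 and 8 in 1.54%, 8 and 9 in 1.66%, and 9 and 10 in 3.79%. Over all libraries the shares were 0.0754%, 5.38%, 1.53% for residues 6 and 7, 1.62%, 1.72% and 3.56%. The pair at the centre of each CDR3, whatever its length, was hydrophobic in 1.25% of chains (1.16 to 1.35). Anti-CD137 Tex had 2.15% at residues 7 and 8 (1.43 to 3.09) and control Tex 1.54% (0.902 to 2.46).

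**Figure D2:**
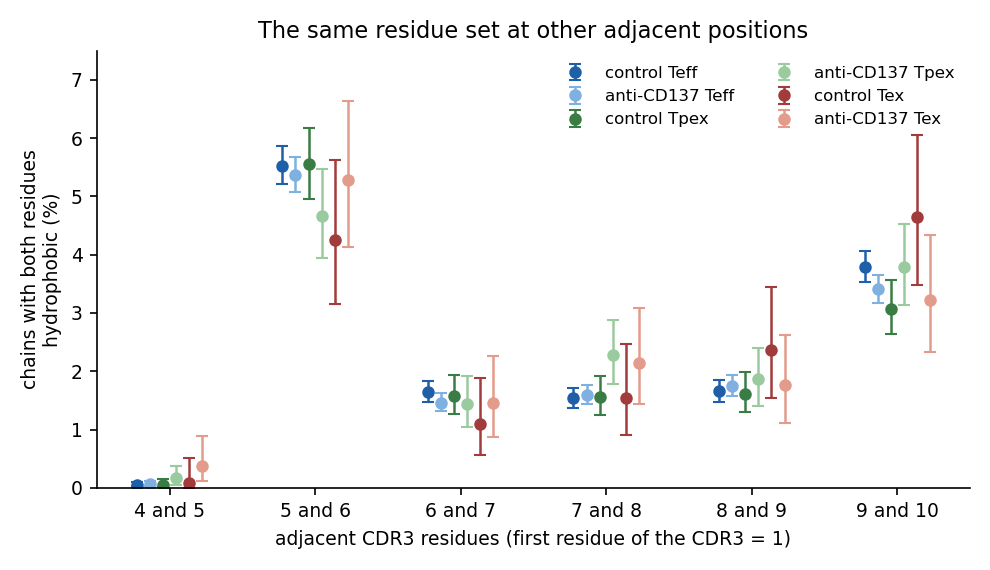
Share of chains with both residues hydrophobic at each adjacent pair of CDR3 positions, in percent, once per nucleotide CDR3, in the 6 libraries, with exact 95% intervals. Positions 6 and 7 lie between 1.09 and 1.65% in every library, below positions 5 and 6.

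Tryptophan, the largest side chain of the set, was the residue found most often at position 7 of the members, and valine at position 6. Trp stood at residue 6 or 7 in 398 of 813 members (49.0%), at residue 7 in 330 (40.6%) and at residue 6 in 73 (8.98%). Leu was second at residue 7, in 195 members (24.0%), then Val in 104, Tyr in 99, Ile in 43, Phe in 35 and Met in 7. At residue 6 Val came first, in 301 members (37.0%), then Leu in 174, Tyr in 129, Ile in 69 and Phe in 57. Cys was found in 6 members (0.738%), always at residue 6.

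The rule sets which residues can occur, so the members were set beside chains in which only that 1 position was hydrophobic. At residue 7 Trp made up 40.6% of members (37.2 to 44.1) and 38.0% of the 9183 chains with residue 7 alone, and Leu made up 24.0% (21.1 to 27.1) and 31.3% (30.4 to 32.3). At residue 6 Trp made up 33.5% of the 6885 chains with residue 6 alone (32.4 to 34.6) and 8.98% of members (7.1 to 11.2). Val made up 20.6% of those chains and 37.0% of members (33.7 to 40.4), Tyr 7.12% and 15.9% (13.4 to 18.6), Ile 3.12% and 8.49%, and Phe 3.6% and 7.01%.

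The commonest pair was Val-Trp in 127 members (15.6%), then Tyr-Trp in 109 (13.4%) and Val-Leu in 91 (11.2%), each found in all 6 libraries. The next were Leu-Leu in 59, Trp-Val in 41, Leu-Trp in 36, Leu-Val in 35, Phe-Trp in 29, Leu-Tyr in 25 and Ile-Tyr in 24. The 4 most frequent pairs thus ended in Trp or Leu, the residues that TRBD2 encodes in frames 3 and 2.

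Bases were assigned to V, D and J by matching each CDR3 to the germline segments, with a D match of at least 5 bases. In members, 40.7% of the bases of codons 6 and 7 lay in the D match and 44.8% matched no segment, against 58.8% and 27.4% in other chains. This contrast is tied to the rule, since no D frame holds more than 1 hydrophobic codon. The 2 codons of a member thus cannot both lie wholly in D. Over the whole CDR3, members held a mean of 5.0 unmatched bases and other chains 4.09. The codon for Trp lay wholly inside the D match in 322 of the 398 members with Trp at 6 or 7, in 292 of the 330 at residue 7. The same held for 134 of the 195 members with Leu at residue 7. Neither D segment encodes Val or Tyr in any frame, so these codons could not lie wholly in D. At residue 6, 200 of 301 Val codons had at least 1 base from V, and 103 of 129 Tyr codons at least 1 from D.

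The residue that TRBD2 places before its Trp is Asp, which is not in the hydrophobic set. Of the 3470 chains whose Trp codon at residue 7 lay wholly in the D match, 2281 (65.7%) had Asp at residue 6, and 292 (8.41%, 7.51 to 9.39) were members. In those 292 members, codon 6 held 0 D bases in 28 chains, 1 in 161 and 2 in 103. None held 3, which the rule fixes, since a codon 6 wholly from TRBD2 would there encode Asp. Likewise 1339 of 2282 chains (58.7%) with a D-encoded Leu at residue 7 had Gly at residue 6, and 134 (5.87%, 4.94 to 6.92) were members. Both member shares were under the 14.5% of all chains with a hydrophobic residue 6.

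Hydrophobic 6-7 chains used TRBJ2 segments more often than other chains. Members were 727 of 36338 chains with a TRBJ2 segment (2.0%, 1.86 to 2.15) and 86 of 16697 with a TRBJ1 segment (0.515%, 0.412 to 0.636), a difference of 1.49 percentage points (1.3 to 1.67) and a ratio of 3.88. TRBJ2 made up 89.4% of members and 68.2% of other chains. Each TRBJ2 segment lay above each TRBJ1 segment: the TRBJ2 shares ran from 1.52% (TRBJ2-2) to 2.11% (TRBJ2-1), and the TRBJ1 shares from 0.239% (TRBJ1-2) to 0.765% (TRBJ1-4).

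The order held in each of the 6 libraries. In Teff the TRBJ2 and TRBJ1 shares were 2.11% and 0.634% in the controls, and 1.93% and 0.434% after anti-CD137. In Tpex they were 2.11% and 0.488%, and 1.9% and 0.415%. In Tex they were 1.36% and 0.542%, and 1.84% and 0.522%, with 2 TRBJ1 members in each Tex library.

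Much of that difference lay in chains with Trp. Trp stood at residue 6 or 7 in 15.9% of TRBJ2 chains and 2.45% of TRBJ1 chains. Members without Trp still made up 0.96% of TRBJ2 and 0.395% of TRBJ1 chains. Members with neither Trp nor Leu made up 0.314% (0.259 to 0.377) and 0.228% (0.161 to 0.312), and these intervals overlap.

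Split by D match, members were frequent where the chain matched TRBD2 or no D, and rare where it matched TRBD1. Among TRBJ2 chains, 501 of 17777 with a TRBD2 match were members (2.82%, 2.58 to 3.07), 26 of 9674 with a TRBD1 match (0.269%, 0.176 to 0.394) and 190 of 7173 with no match (2.65%, 2.29 to 3.05). Among TRBJ1 chains, 7 of 9401 with a TRBD1 match were members (0.0745%, 0.0299 to 0.153) and 70 of 5475 with no match (1.28%, 0.998 to 1.61). TRBD2 matches in 5.29% of TRBJ1 chains, a join that the order of the segments does not allow, show that short matches sometimes named the wrong D. A D match is also tied to the rule, since a matched D fills the centre of the loop with the residues it encodes.

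**Figure D3:**
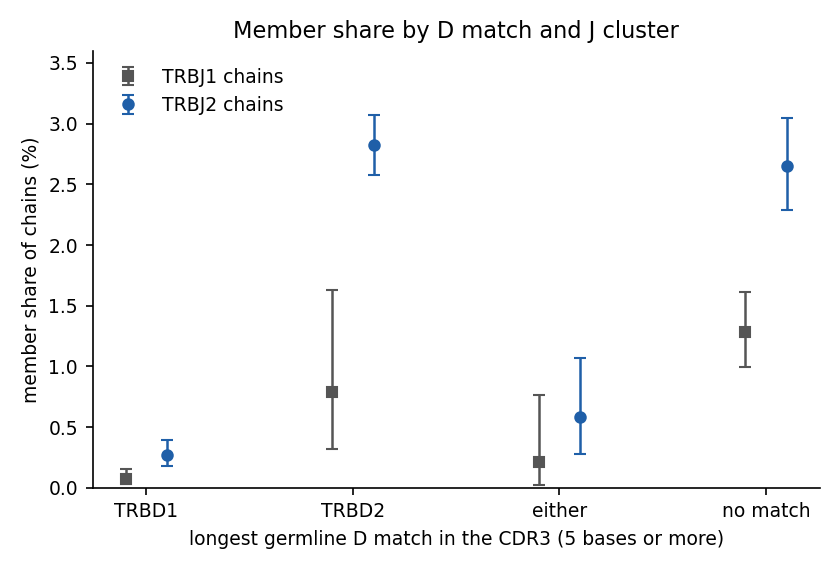
Share of hydrophobic 6-7 chains, in percent and once per nucleotide CDR3, by the longest germline D match and the J cluster, with exact 95% intervals. TRBJ2 chains with a TRBD2 match reach 2.82%, whereas chains with a TRBD1 match stay at 0.269% (TRBJ2) and 0.0745% (TRBJ1).

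Among CDR3 lengths with at least 200 chains, the member share was highest at 11 and at 16 residues. It was 0 among 502 chains of 10 residues (upper interval bound 0.732%), 2.75% among chains of 11 residues (65 of 2366, 2.13 to 3.49), 0.946% at 13 residues (91 of 9623, 0.762 to 1.16), 1.81% at 15 (210 of 11624, 1.57 to 2.07) and 2.69% at 16 (138 of 5123, 2.27 to 3.17). At 12, 14, 17 and 18 residues it was 1.14%, 1.21%, 2.24% and 1.78%. The 96 chains under 10 residues, in which residue 7 lies close to the J end, held 12 members (12.5%, 6.63 to 20.8). Chains of 15 to 17 residues had a share of 2.09% (1.88 to 2.31) and chains of 12 to 14 residues 1.12% (1.01 to 1.24).

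Members of 11 residues nearly all used 1 J segment. Of the 65 members of 11 residues, 60 used TRBJ2-7, which was 5.87% of the 1022 TRBJ2-7 chains of that length (4.51 to 7.49), and 55 of them had Tyr at residue 7. At this length the capital TAT codon of the TRBJ2-7 sequence shown above falls on residue 7. The other J segments gave 5 members of 11 residues. In these short members 52.3% of the bases of codons 6 and 7 came from J, against 10.4% at 12 to 14 residues and 0% at 15 to 17. Other chains of these lengths had 48.1%, 9.76% and 0.124%, so this course with length was not particular to members.

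The D share of codons 6 and 7 was higher in longer chains, members or not. In members of 15 to 17 residues 57.0% of the bases of codons 6 and 7 lay in the D match, against 30.9% in members of 12 to 14 residues. In other chains the values were 66.5% and 58.3%. Members thus held less D at both lengths, which is tied to the rule, since no D frame holds more than 1 hydrophobic codon. The higher share of the longer chains was seen in both Teff libraries, with 2.5% against 1.14% in the controls and 2.01% against 1.02% after anti-CD137. In control Tpex it was 1.74% against 1.31%, and in anti-CD137 Tpex 1.45% against 1.3%. In control Tex the longer chains had 2 members among 366 (0.546%) and the shorter 9 among 654 (1.38%), and in anti-CD137 Tex 8 among 441 (1.81%) and 7 among 775 (0.903%).

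**Figure D4:**
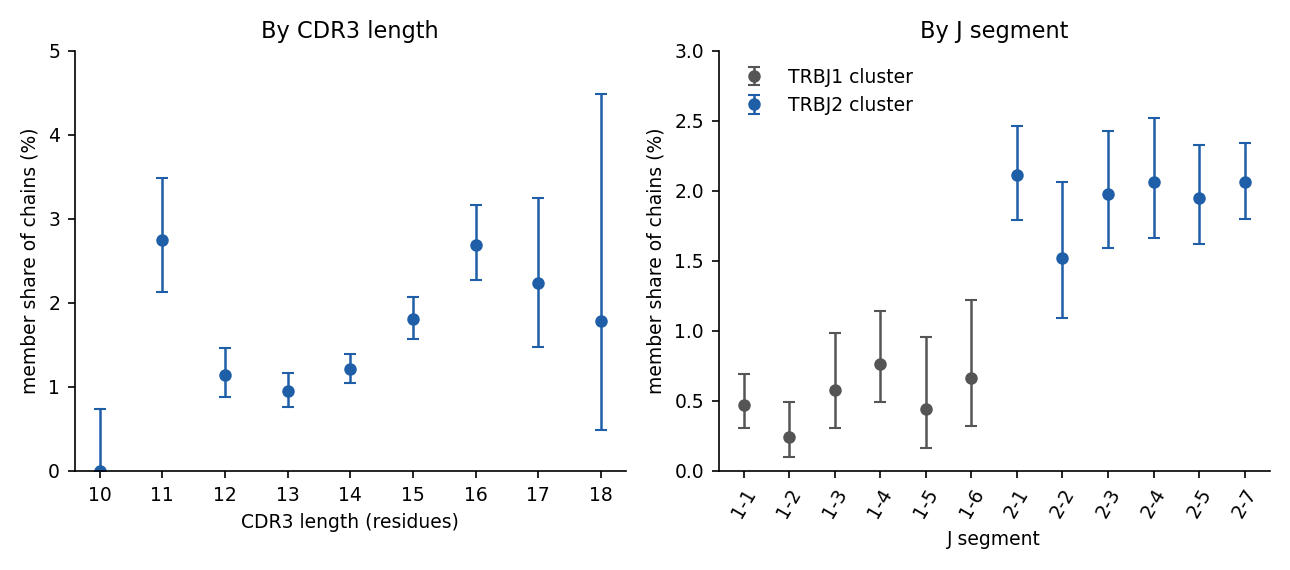
Share of hydrophobic 6-7 chains, in percent and once per nucleotide CDR3, by CDR3 length (left, lengths with at least 200 chains) and by J segment (right), with exact 95% intervals. The share peaks at 11 and at 16 residues, and every TRBJ2 segment, at 1.52 to 2.11%, lies above every TRBJ1 segment, at 0.239 to 0.765%.

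The V segment encodes the start of the CDR3 and, with few trimmed bases, the first bases of codon 6. Of the 19 V segments with at least 1% of chains, the 5 with the highest member share were TRBV12-2+TRBV13-2 (2.24%, 105 of 4679, 1.84 to 2.71), TRBV16 (2.22%, 1.79 to 2.72), TRBV3 (2.03%, 1.62 to 2.52), TRBV14 (1.97%, 1.46 to 2.61) and TRBV12-2 (1.85%, 1.44 to 2.34). The 5 with the lowest were TRBV29 (0.764%, 24 of 3141, 0.49 to 1.13), TRBV31 (0.768%, 0.369 to 1.41), TRBV15 (0.886%, 0.517 to 1.42), TRBV17 (0.931%, 0.533 to 1.51) and TRBV5 (0.932%, 0.57 to 1.44). These are V gene segments of the Trb locus on chromosome 6, for example TRBV16 at 41151740 to 41152230 on the plus strand, TRBV29 at 41271394 to 41271881 on the plus strand, and TRBV31, which lies beyond the J clusters, at 41557691 to 41558452 on the minus strand. The deposited name TRBV12-2+TRBV13-2 joins the names of 2 segments, and 99.3% of its contigs matched TRBV13-2 in the framework 3 sequence before the CDR3.

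The segments' shares also varied between the Teff libraries, which were not tested against each other. TRBV14 had 2.78% in control Teff and 1.38% in anti-CD137 Teff. TRBV15 had 0.43% and 1.39%, and TRBV17 had 0.461% and 1.33%. TRBV12-2+TRBV13-2 had 2.73% and 1.85%, TRBV16 2.39% and 2.07%, TRBV3 1.97% and 2.15%, and TRBV29 0.574% and 0.853%. No intervals were computed for these values. Over all libraries TRBV15 had 17 member chains, TRBV17 had 16 and TRBV29 had 24, so their Teff values rest on few chains.

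**Figure D5:**
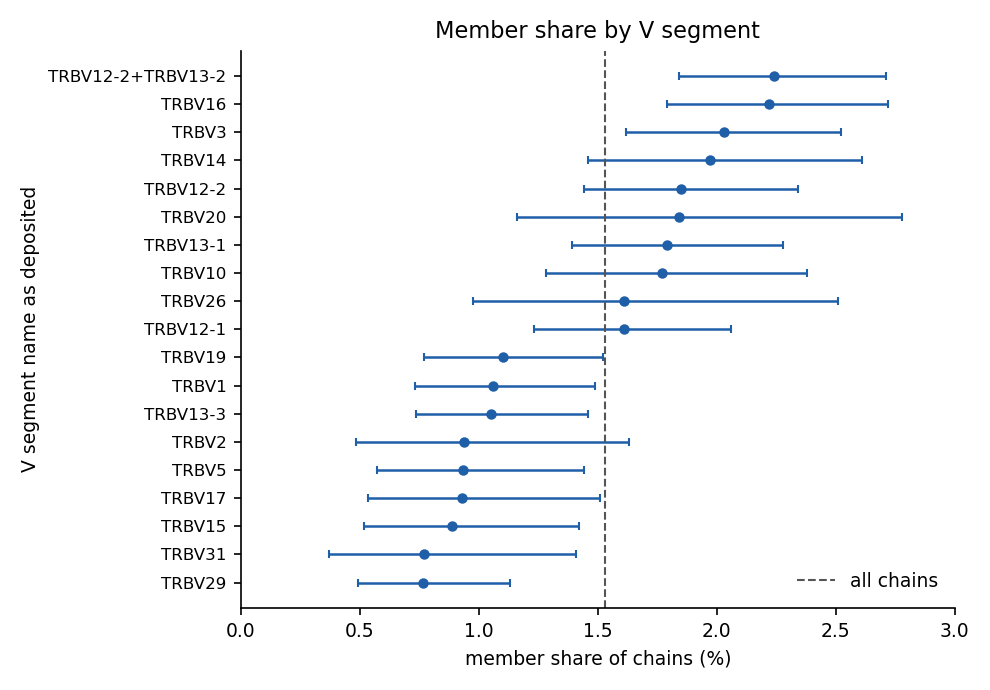
Share of hydrophobic 6-7 chains, in percent and once per nucleotide CDR3, for the 19 V segments with at least 1% of chains, named as deposited, with exact 95% intervals. The dashed line is the share of all chains, 1.53%, and the segments range from 0.764 to 2.24%.

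Residues that the rule did not use differed as well. Residue 5 was hydrophobic in 41.1% of members (37.7 to 44.6) and 34.1% of other chains (33.7 to 34.6). Residue 8 was hydrophobic in 6.97% of members (5.3 to 8.95) and 15.1% of others (14.8 to 15.4), and it was Gly in 56.1% (52.6 to 59.6) and 35.7% (35.3 to 36.1). Gly follows both Trp and Leu in the TRBD2 frames. The mean net charge of the rest of the CDR3 was -1.01 in members and -0.753 in others. Mean length was 14.1 residues in members and 13.9 in others.

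Hydrophobic 6-7 chains were found in both treatments less often than other chains as counted. Of 797 distinct member nucleotide CDR3s, 2 were seen in both the anti-CD137 and the control mice (0.251%, 0.0304 to 0.904), against 726 of 50026 others (1.45%, 1.35 to 1.56). With other chains weighted to the members' numbers of unmatched bases, the value for others was 0.911%, and weighted also by J cluster it was 0.886%, inside the interval of the members. Both shared members used TRBV13-1: the Trp-Val chain with TRBJ2-3 was in 1 control and 2 anti-CD137 cells, and the Trp-Tyr chain with TRBJ2-7 in 2 and 2. By amino acid sequence 21 of 756 member CDR3s (2.78%, 1.73 to 4.21) and 7.23% of others (6.98 to 7.48) were in both treatments. At least 2 nucleotide CDR3s for the same amino acid sequence were found for 4.76% of members (3.36 to 6.53) and 10.6% of others (10.3 to 10.9). The comparisons by amino acid sequence were not weighted for unmatched bases or J cluster.

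Between the sorted subsets of 1 treatment, the sharing of member chains did not differ from that of other chains beyond counting error. Of 12 member chains in control Tex, 6 were also in control Tpex, against 48.9% of 1090 others, a difference of 1.1 percentage points (-28.0 to 30.2). In anti-CD137 Tex it was 5 of 19 (26.3%) against 35.5%, a difference of -9.14 (-26.5 to 15.9). No member chain of Teff was found in Tex, among 318 in the controls (upper interval bound 1.15%) and 331 after anti-CD137 (1.11%), where the shares of other chains were 0.38% and 0.555%.

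The paired TRA chain did not stand out beyond counting error. The same rule was applied to the TRA CDR3 in pairs of a TRB and a TRA chain. Hydrophobic residues 6 and 7 were found in 12 of 720 pairs with a member TRB (1.67%, 0.864 to 2.89) and 670 of 47310 other pairs (1.42%, 1.31 to 1.53). A TRA was found in 78.8% to 86.1% of member cells and 74.7% to 90.7% of other cells across the libraries.

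RNA depth of member cells was close to that of other cells in Teff and Tpex. Median UMIs per cell in member and other cells were 4336 and 4466 in control Teff, 4103 and 4077 in anti-CD137 Teff, 4696 and 4621 in control Tpex, and 1936 and 2046 in anti-CD137 Tpex. In control Tex they were 6732 and 5492, where 1 chain held 56.6% of the member cells, and in anti-CD137 Tex 2822 and 3557. Median ribosomal UMIs were 19.4% and 18.2% in control Tex and 18.6% and 18.5% in anti-CD137 Tex.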

How the data were processed

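Splenic CD8+ T cells of 6 sorted populations were profiled with 5′ single-cell gene expression and TCR libraries, 12 samples in all. The authors' deposited contig table gives UMI counts for 104555 TRB chains, with their CDR3, V and J names, and the deposited cell table gives RNA UMI counts, cluster numbers and the percent of ribosomal and mitochondrial UMIs per cell. Cell Ranger 3.0.2, Seurat 4.0.0 and the mm10 build are named per the submitters' processing notes; the treatment of doublets is not stated in these sources, and no doublet caller was run.

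TRB contigs were joined to the cells by library and barcode, and the chain with the most UMIs was kept, ties going to the lower contig number. Shares were computed by cells and once per nucleotide CDR3 and library, with exact Clopper-Pearson 95% intervals and Newcombe intervals for differences (Python 3.11.15, pandas 2.3.3, scipy 1.17.1). Germline bases were assigned by matching the CDR3 from both ends to GENCODE M21 segments and the rest to the D segments. The intervals were tested on simulated independent draws, which does not cover clones of many cells. Base assignment was tested on simulated chains of TRBV16 and TRBJ2-1, and the choice between TRBD1 and TRBD2 was not scored. Deposited V names were linked to GENCODE segments through the framework 3 sequence of the contigs, where chains named TRBV10 matched TRBV4 in 99.9% of contigs. V segments named are the 5 highest and 5 lowest with at least 1% of chains, chains named are the 3 largest members per library and those in both treatments, pairs are the 10 most frequent, lengths have at least 200 chains and clusters at least 50 TRB cells.

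The members and lists were chosen with earlier results of these data known. Libraries were the unit, 1 per group, so no p-value is given. Alternatives changed the chain choice, residue set, clones included and standardisation.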

Additional observations from a re-analysis of the deposited data

How the results depend on the processing

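Over the treatment, subset, clone size and cluster differences, 185 of 193 alternative values stayed within the 95% interval of the reported difference, 8 lay outside it and 0 changed the sign of a difference whose interval excluded 0. For control Tex minus Teff by cells (-0.994 percentage points) the value was -0.673 with Tyr left out of the residue set and -0.547 standardised by J segment, and -1.32 without the largest member chain of each library. Anti-CD137 Tex minus Teff by cells (-0.757) was -0.444 standardised by V segment, and control Tpex minus Teff by cells (-0.271) was 0.0305 without the 3 largest TRB chains of each library. The treatment difference in Tex by cells (0.101) was -0.244 standardised by J segment and 0.28 (0.0607 to 0.526) without the largest member chain of each library. Some intervals that included 0 then excluded it, and those by cells take each cell as an independent draw. Control Tpex minus Teff by cells was -0.313 in paired cells, -0.296 with at least 3 TRB UMIs, -0.302 with all TCR barcodes, -0.354 without Tyr and -0.326 without the largest member chain. Anti-CD137 Tpex minus Teff by cells was -0.415 (-0.742 to -0.0424) in cells with exactly 1 TRB and -0.269 with all TCR barcodes. The Teff treatment difference per nucleotide CDR3 was -0.22 without Tyr, and control Tex cluster 4 minus 3 was -0.644 by cells. The cause was not tested. Standardising by J segment, leaving out the largest member chain and all alternatives for at least 1 hydrophobic residue were chosen after seeing the data. Leaving out the largest member chain removes member cells only, so it lowers each share by cells by construction. Leaving out the 3 largest TRB chains removed no member cells, so it raises each share by cells by construction. For at least 1 hydrophobic residue in anti-CD137 Tex, 12 of 12 alternative values stayed within the interval. With expanded chains taken as those of at least 5 cells, the clone size difference was 2.02 in control Teff (1 of 27 expanded chains a member) and 1.98 in anti-CD137 Teff (2 of 58). No paired analysis was possible because each group was 1 library and the labels give no replicate numbers. The 12 and 19 member chains of the Tex libraries limit those shares, as does the anti-CD137 Tpex library, where 11950 TRB barcodes, 139 of them members, lay outside the cell table.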
